A study of Mus musculus with 4 samples.

Results

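Cadmium blood held far fewer reads of miR-205 than control blood. Of the other epithelium-associated microRNAs (miRNAs) set beside it, miR-203, miR-204 and 4 members of the miR-200 family did not pass the test. miR-200a, also of that family, was not tested. The 8 loci described here were chosen by name from the 374 annotated miRNA loci listed in at least 1 library: mmu-mir-200a, mmu-mir-200b and mmu-mir-429 in a cluster on chromosome 4, mmu-mir-200c and mmu-mir-141 in a cluster on chromosome 6, and the single loci mmu-mir-203, mmu-mir-204 and mmu-mir-205. The rule uses names alone, but the names were proposed with earlier results of these data known. All 8 were listed in control 1, and 7 in each of cadmium 1, cadmium 2 and control 2.

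Small RNA from whole blood of 180-day-old Balb/c mice, an inbred strain, was sequenced by Illumina short reads. The cadmium group drank cadmium-containing water and had 2 libraries, and the control group, given feed and water without cadmium, had 2. Neither the dose nor the length of exposure is stated in the labels. They also leave unsaid whether libraries of a group came from separate animals, so the spread behind a p-value here could be technical. That spread is estimated with information shared across the tested loci, not from the libraries of a single locus alone. Red cell, leukocyte and lymphocyte miRNAs (miR-486, miR-144, miR-142, miR-150 and miR-181a) were listed in all 4 libraries. Annotated loci summed to 14383852 and 15565712 reads in cadmium libraries 1 and 2, against 35244119 and 24622926 in controls 1 and 2.

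The miR-200 family is known for keeping epithelial cells epithelial. Its members bind the messages of Zeb1 and Zeb2, repressors of E-cadherin, and those repressors in turn shut down the family's own genes. miR-205 acts on the same targets and is abundant in stratified epithelia such as skin, miR-203 limits the stem-like state of keratinocytes by targeting p63, and miR-204 is known from retinal pigment epithelium and kidney. Blood cells are not their main source. Of the counts summed over annotated loci, the 8 loci together held 0.0259% and 0.0227% in cadmium libraries 1 and 2. In controls 1 and 2 they held 0.0184% and 0.0272%. The 95% Wilson intervals ran from 0.0250% to 0.0267% and from 0.0219% to 0.0234% in the cadmium libraries, and from 0.0180% to 0.0188% and from 0.0266% to 0.0279% in the controls. They cover counting error only. The total adds every locus, and some loci hold nearly equal counts, such as miR-486 and miR-3107 (means of 210177 and 209328 CPM). Reads that match several loci thus appear to enter the total more than once, and shares of distinct reads would be higher. miR-486 was lower with cadmium, at 161361 and 173095 CPM against 261145 and 245108 CPM, so the repeated part differs between groups.

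The sequences are shown because the seed, bases 2 to 8 counted from the 5′ end, decides which messages a miRNA pairs with and splits the family into 2 groups that cut across both clusters. The mature forms, from RefSeq on GRCm38.p6, are written with the seed in capitals. The first group, with seed AACACUG, takes 1 member from each cluster:
mmu-miR-141-3p: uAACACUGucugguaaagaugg
mmu-miR-200a-3p: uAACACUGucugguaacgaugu
The second group, with seed AAUACUG, takes the other members of both clusters:
mmu-miR-200b-3p: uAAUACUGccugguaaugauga
mmu-miR-200c-3p: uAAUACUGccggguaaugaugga
mmu-miR-429-3p: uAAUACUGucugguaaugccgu
The single loci have seeds of their own:
mmu-miR-203-3p: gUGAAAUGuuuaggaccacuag
mmu-miR-204-5p: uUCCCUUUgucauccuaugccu
mmu-miR-205-5p: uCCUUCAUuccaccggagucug

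Within each seed group 1 pair is close to identical. Over 22 bases miR-141 and miR-200a differed at 2 positions (A17C and G22U, miR-141 base first), and miR-200b and miR-200c at 2 positions (U11G and A22G, miR-200b base first). miR-429 shares the seed of miR-200b and miR-200c but differed from them at 4 and 5 positions, as many as lie between members of different seed groups (4 or 5). Reads that were cut short or carried an error at a differing position could fall to either copy, so values within the 2 close pairs are less certain than the pair's sum. No other listed locus, annotated or predicted, carried the sequence of any of the 8, and none other lay in their hairpins.

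Each locus was counted on 1 arm of its hairpin. The hairpin of miR-205, the locus with the largest difference below, is shown with the counted window in capitals (chr1:193507463-193507530, minus strand, GRCm38.p6), which lies on the 5′ arm:
Mir205: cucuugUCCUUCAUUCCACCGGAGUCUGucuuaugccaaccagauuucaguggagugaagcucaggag
The counted window was on the 3′ arm for miR-203 and all members of the miR-200 family, and on the 5′ arm for miR-204. It was the same in every library that listed the locus, with 1 exception: miR-203 was counted over 19 bases in control 2 and over 22 bases in the other 3 libraries.

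In the mm10 annotation (GENCODE M21) miR-205, at chromosome 1, 193507503 to 193507524, minus strand, lies in an exon of the long noncoding transcript 4631405K08Rik. miR-200b (chromosome 4, 156055684 to 156055706, minus strand) and miR-200a (156054912 to 156054932) lie in introns of Ttll10 and of the noncoding transcript Gm13648. miR-429 (156053917 to 156053937) lies in an intron of Ttll10 and in an exon of Gm13648. The counted starts of these 3 span 1767 bases. miR-200c (chromosome 6, 124718324 to 124718346, minus strand) and miR-141 (124717918 to 124717938) start 406 bases apart, each in an intron of the antisense transcript Gm15884, and miR-141 also in an exon of Gm29008. miR-204 (chromosome 19, 22750610 to 22750630, plus strand) lies in an intron of Trpm3, the gene of a cation channel. miR-203 (chromosome 12, 112130927 to 112130948, plus strand) has no annotated gene over it other than its own.

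The level of miR-205 was 0.742 and 1.06 CPM (reads scaled to a common library size, with TMM, the trimmed mean of M values, as normalization) in cadmium libraries 1 and 2, against 8.66 and 6.33 CPM in controls 1 and 2. These came from 12 and 18 reads in the cadmium libraries, against 272 and 142 reads in the controls. Both cadmium libraries lay below both controls. The log2 distance within a pair was 0.51 with cadmium and 0.45 in controls, against means of 0.21 and 0.40 over all tested loci. The exact 95% Poisson intervals of the reads were 6.20 to 21.0 and 10.7 to 28.4 in the cadmium libraries, against 241 to 306 and 119.6 to 167 in the controls. They cover counting error within a library only, and the libraries differ in depth. miR-205 averaged 0.900 ± 0.224 CPM with cadmium and 7.49 ± 1.64 CPM in controls (SD, n = 2 each). It was 8.28-fold lower with cadmium, a log2 fold change of -3.05 ± 0.31 (SE; edgeR quasi-likelihood test, Benjamini-Hochberg adjusted p = 0.00204). With TMM scaling this was the lowest log2 fold change of the 276 loci tested, next to miR-592 at -3.02 ± 0.30 (edgeR adjusted p = 0.00204). The direction held in each of the 17 alternative settings in which miR-205 was tested, leaving out any 1 library included. Log2 fold changes ran from -3.33 to -2.75. The call held in every such setting that kept all 4 libraries. There the adjusted p ran from 2.41e-10 (DESeq2 Wald test) to 0.0233 (edgeR with the replicate block). In whole blood RNA, fewer cells of a type and less RNA per cell cannot be told apart.

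Of the 7 members tested, 1 was lower with cadmium and 0 were higher. Over all 276 tested loci 6.52% were called lower, 7.97% higher and 14.5% in either direction at an adjusted p under 0.05, so the members' count of calls was near the background. The members' median log2 fold change was -0.11, and that of all loci 0.08. The groups did not overlap in level for 3 members (miR-205, miR-200b and miR-429), while 69.9% of all tested loci had groups that did not overlap. These shares over all loci count copies with equal reads separately. With 1 locus per mature sequence, 211 loci were tested, of which 16 were called higher and 13 lower.

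**Figure D1:**
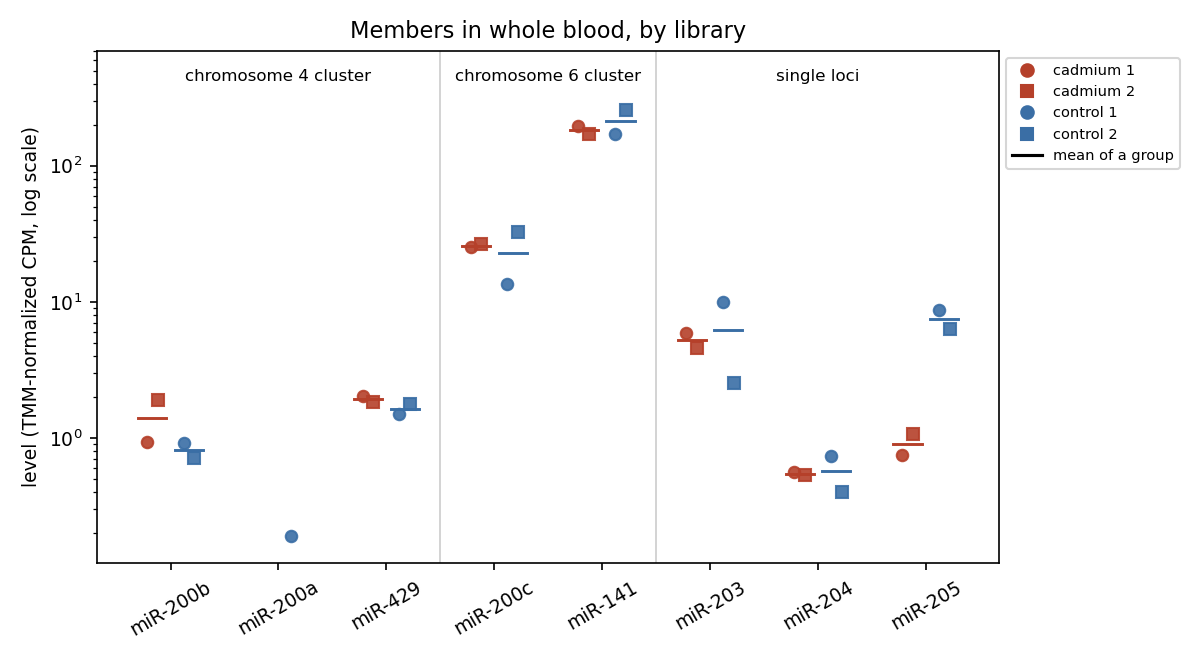
Level of each member in TMM-normalized CPM on a log axis, with cadmium libraries in red and controls in blue; circles are library 1, squares library 2, and bars the mean of a group. miR-205 is at 0.742 and 1.06 CPM with cadmium and at 8.66 and 6.33 CPM in controls, while miR-141 is the most abundant member in every library and miR-200a has 1 point because only control 1 listed it.

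**Figure D2:**
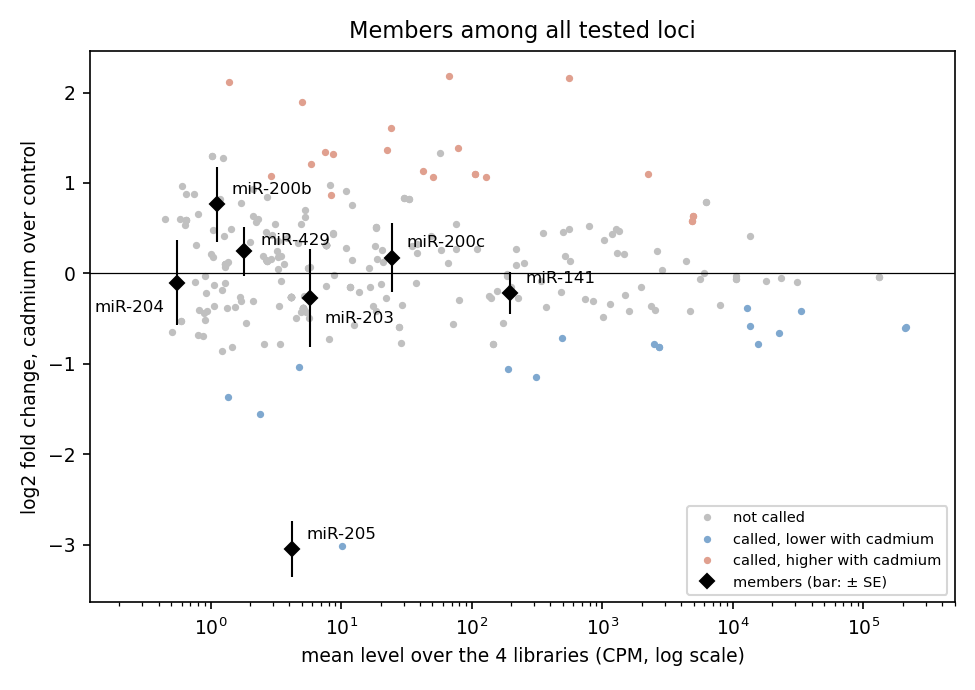
Log2 fold change of cadmium over control against mean CPM (log axis) for the 276 tested loci, each a dot coloured by its call, with the 7 tested members as black diamonds and bars of 1 SE. miR-205 is the lowest point at -3.05, and the other 6 members lie between -0.27 and 0.77 inside the cloud of loci that were not called.

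The chromosome 6 cluster supplied nearly all reads of the miR-200 family. miR-141 had 195 and 171 CPM in cadmium libraries 1 and 2, against 171 and 255 CPM in controls 1 and 2. Cadmium 2 and control 1 were level, cadmium 1 was a little higher, and control 2 stood highest. The log2 fold change was -0.22 ± 0.23 (edgeR adjusted p = 0.506), and 65 of the 276 tested loci were more abundant on average. miR-200c, its neighbour with the other seed, had 25.2 and 26.6 CPM in the cadmium libraries, against 13.6 and 32.4 CPM in the controls. The 2 cadmium libraries fell between controls that lay 2.38-fold apart (log2 fold change 0.18 ± 0.38, edgeR adjusted p = 0.750). For both loci the sign of the difference was set by which control it was taken against. Without control 1 the log2 fold changes were -0.48 for miR-141 and -0.32 for miR-200c. Without control 2 they were 0.10 and 0.93.

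The chromosome 4 cluster was near the lower limit of these lists. miR-429 had 2.04 and 1.82 CPM in cadmium libraries 1 and 2, against 1.496 and 1.78 CPM in controls 1 and 2, from 33 and 31 reads against 47 and 40. The cadmium values were above both controls by a margin smaller than the spread within either pair, and the log2 fold change was 0.24 ± 0.27 (edgeR adjusted p = 0.532). miR-200b had 0.927 and 1.88 CPM in the cadmium libraries, from 15 and 32 reads, against 0.923 and 0.713 CPM in the controls, from 29 and 16 reads. Cadmium 1 and control 1 were level, cadmium 2 was higher, and the log2 fold change was 0.77 ± 0.41 (edgeR adjusted p = 0.291), with 0.17 ± 0.64 when cadmium 2 was left out. miR-200a was listed in control 1 alone, with 6 reads or 0.191 CPM, and was not tested. The lists start at 5 reads. The level seen in control 1 would be 3.09 and 3.25 reads in cadmium libraries 1 and 2 and 4.28 reads in control 2, under that start, so its absence from those lists shows no difference.

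Summed over listed members, the chromosome 4 cluster had 2.97 and 3.71 CPM with cadmium, against 2.61 and 2.50 CPM in controls 1 and 2. The chromosome 6 cluster had 219.8 and 197.6 CPM with cadmium, against 184 and 287 CPM in controls. The difference of mean log2 sums, cadmium minus control, was 0.38 for the chromosome 4 cluster and -0.14 for the chromosome 6 cluster, with a replicate SD of 0.16 and 0.33. Leaving out a library changed both: the chromosome 4 value was 0.22 without cadmium 2, and the chromosome 6 value was -0.46 without control 1 and 0.18 without control 2. With total counts as the scaling, the 2 values were 0.68 and 0.16, and the median of all loci was itself 0.30 higher than with TMM. The chromosome 6 sum was 74.1 and 53.3 times the chromosome 4 sum in cadmium libraries 1 and 2, and 70.6 and 115 times in controls 1 and 2, ranges that overlap. Grouped by seed in place of position, the AACACUG members had 195 and 171 CPM with cadmium against 171 and 255 CPM in controls. The AAUACUG members had 28.1 and 30.3 CPM with cadmium against 16.0 and 34.9 CPM in controls. Neither seed group separated cadmium from control. Exact two-sided permutation of 2 against 2 libraries cannot give a p under 0.333, so sums and ratios were not tested.

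The other single loci did not pass the test. miR-203 had 5.93 and 4.59 CPM in cadmium libraries 1 and 2, against 9.96 and 2.54 CPM in controls 1 and 2. Both cadmium values lay between the controls, which were 3.92-fold apart, the widest gap within a pair among the members. The log2 fold change was -0.27 ± 0.54 (edgeR adjusted p = 0.732). Its sign rested on the choice of control as well: the log2 fold change was 1.05 without control 1 and -0.92 without control 2. Control 2, the lowest, is the library in which miR-203 was counted over the shorter window, and the part of that window in the low value was not tested. miR-204 had 0.556 and 0.530 CPM with cadmium, from 9 reads in each library, against 0.732 and 0.401 CPM in controls, from 23 and 9 reads. Again the cadmium libraries lay between the controls, and the log2 fold change was -0.11 ± 0.47 (edgeR adjusted p = 0.851). An exact 95% Poisson interval of 4.12 to 17.1 for 9 reads shows how little this depth can resolve. Its family member miR-211 was listed in control 1 alone, with 7 reads.

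**Figure D3:**
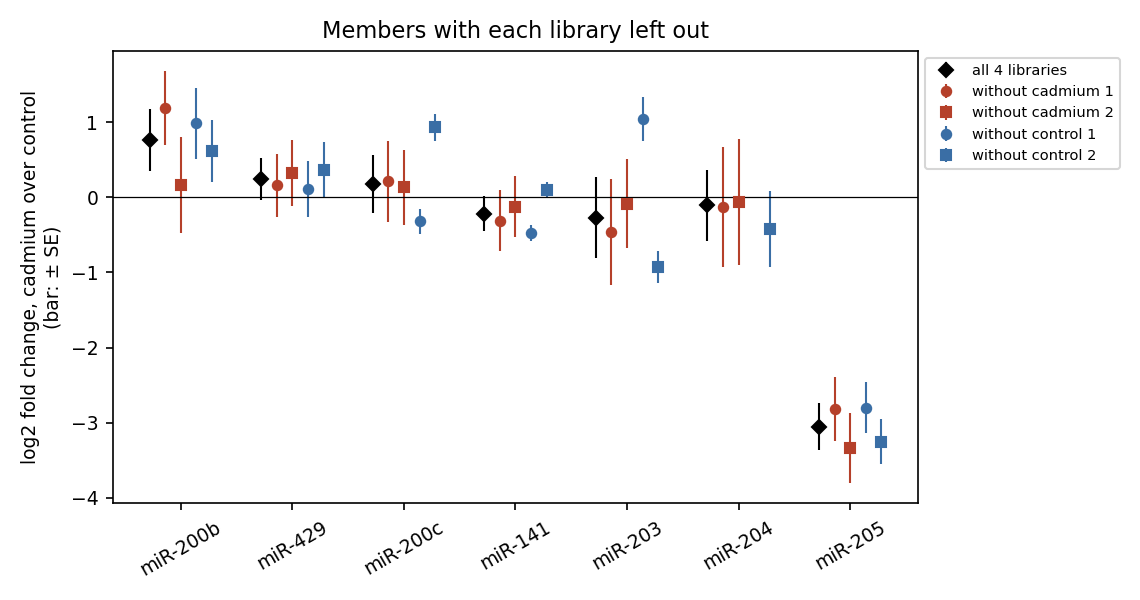
Log2 fold change of cadmium over control for the 7 tested members with all 4 libraries (black) and with each library left out in turn (red, a cadmium library; blue, a control), with bars of 1 SE; miR-204 did not pass the low-count filter without control 1. The values of miR-205 stay between -3.33 and -2.80, while those of miR-203 run from -0.92 to 1.05 and those of miR-200c from -0.32 to 0.93 depending on the control left out.

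The 2 controls differed from each other in a direction that varied by locus. miR-203, miR-204, miR-205 and, in the chromosome 4 cluster, miR-200b were higher in control 1 than in control 2, while miR-141, miR-200c and miR-429 were higher in control 2. The sum of the 3 single loci was 7.23 and 6.18 CPM with cadmium, against 19.3 and 9.27 CPM in controls 1 and 2. That sum was lower with cadmium, with a difference of mean log2 sums of -1.003 and a replicate SD of 0.54. Of the sum, miR-205 supplied 8.66 and 6.33 CPM in controls 1 and 2. The difference was -0.47 without control 1, level with the chromosome 6 cluster's -0.46 in the same setting, and -1.53 without control 2. Its distance from the chromosome 6 cluster thus rested on control 1. The cause of the distance between the controls was not tested.

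Ratios of raw reads within a library do not depend on scaling. Per 100 reads of miR-141 there were 0.381 and 0.619 reads of miR-205 in cadmium libraries 1 and 2, against 5.07 and 2.49 in controls 1 and 2. Per 100 reads of miR-203 there were 12.5 and 23.1 reads of miR-205 with cadmium, against 86.9 and 249 in controls. In both ratios the groups were apart, so miR-205 fell relative to an abundant member and to the other skin-associated member alike. The control 2 value of the second ratio rests on 57 reads of miR-203, counted over 19 bases in place of 22. The part of that shorter window in it was not tested. miR-203 per 100 reads of miR-141 was 3.05 and 2.68 with cadmium, against 5.83 and 0.998 in controls, and these groups overlapped. miR-200c per 100 reads of its cluster neighbour miR-141 was 12.9 and 15.5 with cadmium, against 7.96 and 12.7 in controls. The lowest cadmium value of that ratio was barely above the higher control. miR-429 per 100 reads of miR-141 was 1.05 and 1.07 with cadmium, against 0.876 and 0.700 in controls.

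**Figure D4:**
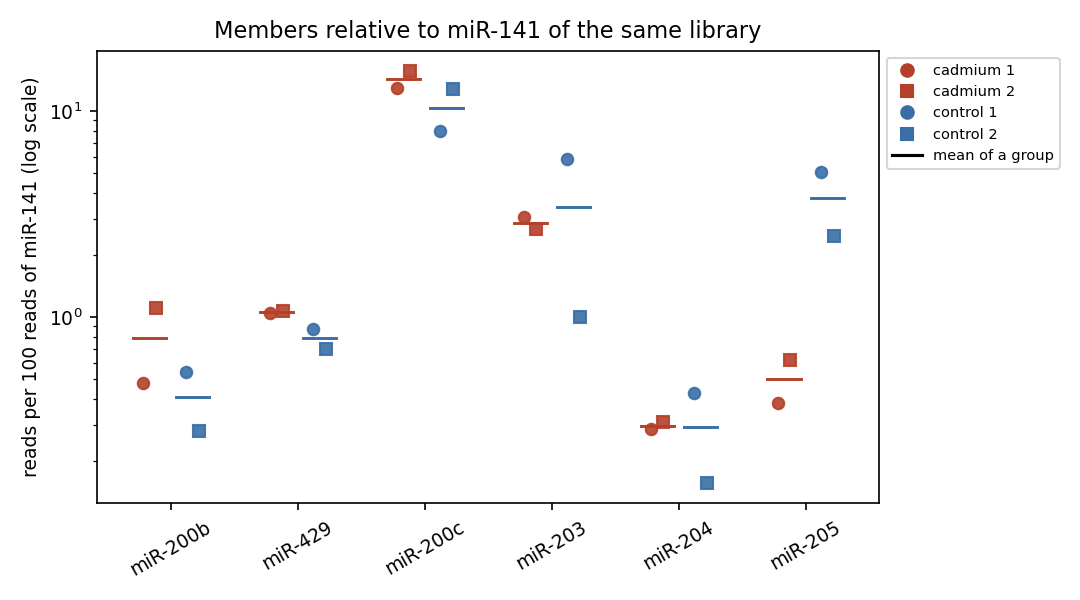
Reads of each member per 100 reads of miR-141 in the same library, on a log axis, with cadmium libraries in red and controls in blue and bars at the mean of a group. miR-205 is at 0.381 and 0.619 with cadmium and at 5.07 and 2.49 in controls, the widest separation of the 6 members shown.

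The order of mean levels was miR-141, miR-200c, miR-203, miR-205, miR-429, miR-200b and miR-204 over the 4 libraries, with means of 198, 24.4, 5.76, 4.20, 1.79, 1.11 and 0.555 CPM. That order pools groups between which miR-205 differed. In cadmium blood miR-205 stood below miR-429 and miR-200b in both libraries, while in controls it stood above them in both. miR-203 and miR-205 could not be ordered in controls, since miR-203 was higher in control 1 and lower in control 2. Reads were taken as 1 per molecule of similar length, and ligation and amplification can favour some sequences, so an order between miRNAs is less certain than a difference of 1 miRNA between libraries.

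A list of 16 other miRNAs linked to epithelia was set beside the members. Of its names 13 were listed in at least 1 library and 10 loci were tested. Of these, 1 was lower with cadmium (6.52% of all loci), 0 were higher (7.97% of all loci) and 9 were not called, with a median log2 fold change of -0.18 against 0.08 over all loci. The lower locus was miR-31, a miRNA of skin and gut epithelium also known from other tissues. It had 123 and 121 CPM in cadmium libraries 1 and 2, against 306 and 204.6 CPM in controls 1 and 2, and both cadmium values were below both controls. Its log2 fold change was -1.06 ± 0.23 (edgeR adjusted p = 0.0195). It missed the threshold in 4 of 18 alternatives. These were leaving out cadmium 1 or cadmium 2, scaling by total counts (edgeR adjusted p = 0.0542), and blocking on the replicate number (edgeR adjusted p = 0.0766). miR-192, the most abundant of the list and a miRNA of gut, liver and kidney, had 1420 and 1302 CPM with cadmium, against 1819 and 1405 CPM in controls (log2 fold change -0.24 ± 0.16, edgeR adjusted p = 0.353). The value was positive with total counts, at 0.06, and was -0.42 without control 2. The other 8 tested loci of the list ranged from miR-375, of endocrine cells, at -0.49 ± 0.22 (edgeR adjusted p = 0.179) to miR-183, of sensory epithelia, at 0.85 ± 0.24 (edgeR adjusted p = 0.0531).

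**Figure D5:**
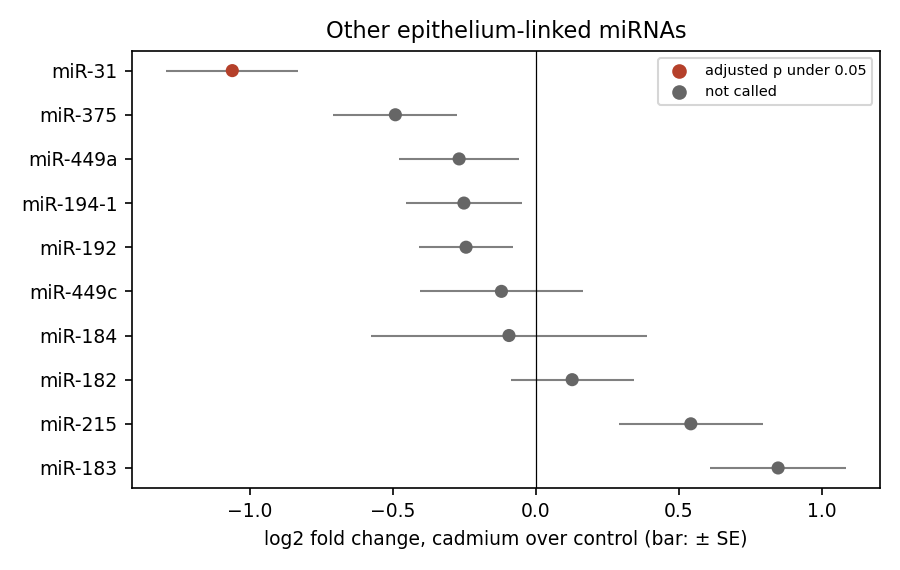
Log2 fold change of cadmium over control with bars of 1 SE for the 10 tested loci of the list of other epithelium-linked miRNAs; red marks an edgeR adjusted p under 0.05. miR-31 at -1.06 is the 1 locus called, and the others run from -0.49 to 0.85.

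Markers of other cell types were read beside the fall of miR-205. The red cell sum of miR-486 and miR-144 was 172101 to 183915 CPM with cadmium, against 258776 to 279737 CPM in controls, with both loci called lower. The lymphocyte sum of miR-150 and miR-181a was 2111 to 2117 CPM with cadmium, against 3154 to 4177 CPM in controls. miR-181a was called lower, and its 2 copies have equal reads, so they give 1 result. miR-150 was not called (log2 fold change -0.55 ± 0.18, edgeR adjusted p = 0.0741). Over all tested loci 6.52% were called lower. The fibroblast and smooth muscle sum was 84.5 to 104 CPM with cadmium, against 76.4 to 136 CPM in controls, with 0 of 4 loci called. Those 4 include 2 copies of miR-199a with equal reads. miR-143 made up most of the sum (log2 fold change -0.29 ± 0.32), and miR-199a was at -0.15 ± 0.27. miR-145a went the other way, with 9.46 and 12.4 CPM with cadmium, against 6.87 and 4.19 CPM in controls (0.97 ± 0.30, edgeR adjusted p = 0.0703). miR-214 of that list is not analysed here. The gut pair miR-194 and miR-215 summed to 205.2 to 223 CPM with cadmium, against 182 to 237 CPM in controls, with 0 of 2 loci called. That sum joins opposite directions. miR-194 had 124.6 and 124.3 CPM with cadmium, against 164.7 and 131.6 CPM in controls (log2 fold change -0.25 ± 0.20). miR-215 had 80.5 and 98.6 CPM with cadmium, against 72.4 and 50.6 CPM in controls (0.54 ± 0.25). The muscle miRNA miR-133a had 41.1 to 43.0 CPM with cadmium, against 13.1 to 34.2 CPM in controls, and was not called. Its 2 copies also have equal reads and give 1 result. The liver miRNA miR-122 was listed with 102 and 114 reads with cadmium, against 16 reads in control 1, and was unlisted in control 2. The platelet and endothelial miR-126a had 180 to 200.1 CPM with cadmium, against 182 to 241 CPM in controls, and the leukocyte miR-142 had 5060 to 5908 CPM against 5510 to 5963 CPM, neither being called. The part of any of these cell types in the fall of miR-205 was not tested. The names miR-451a, miR-223, miR-1a and miR-206 of these marker lists are not analysed here.

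Loci with the most similar pattern over the 4 libraries were found by the root mean square difference of log2 CPM, each locus centred on its own mean, which does not depend on scaling. For miR-205 the nearest were miR-592, at 0.46, and miR-467c, at 0.82. miR-592 had 2.78 and 1.65 CPM with cadmium, against 18.8 and 17.2 CPM in controls. Other members had nearer neighbours: miR-1839 (0.05) and miR-32 (0.07) for miR-141, miR-669o (0.14) and miR-450a-1 (0.17) for miR-200c, and miR-221 (0.03) and miR-1198 (0.07) for miR-429. For miR-200b they were miR-20b (0.26) and miR-215 (0.27), for miR-203 miR-1934 (0.29) and miR-208b (0.30), and for miR-204 the copies miR-128-2 and miR-128-1 (0.12 each). No member was among the 2 nearest loci of another, the pairs that share a cluster included. With 4 libraries such likeness is a description only.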

How the data were processed

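Total RNA of whole blood was made into small RNA libraries, per the labels' protocols. The deposited files hold whole-number counts of mature reads per locus, not normalized, 1 file per library. The submitters' processing notes name mm10, DESeq and Bowtie 0.12.2. What each did, the miRNA annotation release and any filters are not given in the sources used. The lowest count listed was 5, so an unlisted locus is not a measured 0. In cadmium 1 an unnamed row equal to the sum of all other rows was left out. A star name repeating the same locus and count was merged with it. In control 2 only 162 of 693 sequences had the length of their window, so its sequences were not used.

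Groups follow the labels. edgeR 4.0.16 (quasi-likelihood, TMM, filterByExpr, two-sided, Benjamini-Hochberg, threshold 0.05; R 4.3.3) was fitted to annotated loci that every library listed on the same arm (277, of which the filter removed 1), with 2 residual degrees of freedom. The test also draws on spread estimates shared across the tested loci. CPM are TMM-normalized over the tested loci. The SE is the absolute log2 fold change over the square root of F. TMM factors were 1.13 and 1.09 in cadmium libraries 1 and 2, and 0.892 and 0.912 in controls 1 and 2. Total counts of tested loci were larger in controls, so low members are less precise in cadmium libraries.

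The fit was tested on simulated data. Alternatives were 3 scalings (total counts, upper quartile, DESeq2 size factors), 2 filters (none, or a mean CPM of 10 or more), limma 3.58.1 voom and DESeq2 1.42.0 as tests, the replicate block, each library left out, 1 locus per sequence, unlisted loci as 0 or 4 reads, predicted loci included and, added after seeing the data, identical windows and thinned counts. Named loci are all 8 members and the 2 nearest patterns of each tested member. The called and the 2 most abundant loci of the epithelial list (miR-192 and miR-31) are named too. miR-375, miR-183, miR-211 and miR-3107 were added after their values were seen. Members and lists were chosen with earlier results of these data known. Figures were drawn with matplotlib 3.10.9, and tables made with pandas 2.3.3 and SciPy 1.17.1 in Python 3.11.15.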

Additional observations from a re-analysis of the deposited data

How the results depend on the processing

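miR-205 kept its direction in 17 of 17 alternatives that tested it, and its call in each of these that kept all 4 libraries. It had no value with a mean CPM of at least 10. miR-200b and miR-429 kept a positive, uncalled value in each alternative that tested them. With total counts the values of loci that turned were miR-141 at 0.078, miR-203 at 0.0371, miR-204 at 0.193 and miR-192 at 0.0573; with the upper quartile they were miR-203 at 0.0272, miR-204 at 0.16 and miR-192 at 0.0068; with limma voom miR-203 turned to 0.0891. None of these was called, and the median of all loci moved by 0.30 and 0.24 in the first 2 settings. Leaving out each library in turn, miR-141 ran from -0.48 to 0.10, miR-200c from -0.32 to 0.93 and miR-203 from -0.92 to 1.05, and the cause was not tested. The chromosome 4 cluster sum moved to 0.68 with total counts and 0.62 with the upper quartile, which shift all loci upward; the chromosome 6 sum turned to 0.16 and 0.0994 in these settings. Leaving out each library, the sums ran from 0.22 to 0.54 (chromosome 4), -0.46 to 0.18 (chromosome 6) and -1.53 to -0.47 (single loci).

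Calls over all loci, 22 higher and 18 lower, were 57 and 8 with total counts (65 in all), 48 and 9 with the upper quartile, 10 and 9 with the replicate block (19 in all) and 31 and 39 with predicted loci (70 in all). There were 13 higher with a mean CPM of at least 10, where fewer loci are tested. Leaving out each library gave 4 to 66 higher, 4 to 56 lower and 8 to 122 in all. The labels do not say that the replicate numbers pair libraries, and same-numbered libraries deviated from their group means with a correlation of 0.03 across loci; under the block the miR-205 value was -3.03 (edgeR adjusted p = 0.0233). Leaving out a library always leaves a lone library in its group, which is then assumed to vary like the other group. The cadmium pair was closer together than the controls, with mean absolute log2 differences of 0.21 and 0.40 over all loci. Fits without a control take their spread from that closer pair, so their calls are too many to be read as results. miR-200a, listed in control 1 alone, entered the fit only where unlisted loci were set to 0 or 4 reads, and the filter removed it in both. Depth limits miR-204, miR-200b and miR-200a, each at 32 reads or fewer per library. It also limits the size of the miR-205 difference, which rests on 12 and 18 reads in cadmium libraries 1 and 2.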
